A study of Mus musculus with 8 samples.

Results

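The 9 genes described here encode the ligands and receptors through which neurotrophins and insulin-like growth factors act on neurons. They are Bdnf, Ntf3, Ntrk2, Ntrk3, Ngfr, Sort1, Igf1, Igf1r and Igf2r. They were taken from the table by matching these symbols to Ensembl identifiers, which gave 1 identifier for each of the 9 among 32726 rows. All 9 passed the filter on low counts, as did 16272 genes in total. The libraries came from primary cultures of mouse neurons, 4 of genotype KO for Nuak1 (KO1 to KO4) and 4 of genotype WT (WT1 to WT4), on a C57Bl/6JRj background. Cultures were made from embryos and kept for 5 days in a serum-free medium that limits astrocyte growth and whose supplements contain insulin. The study describes a constitutive knockout, which removes Nuak1, a kinase related to AMPK, from every cell type and not from neurons alone. It names cortical cultures and 1 animal for each library, whereas the tissue label of all 8 names cortex or hippocampus. KO1, KO4, WT1 and WT3 carried the lane label A and the others B, and the strain labels, whose meaning is not explained, were BJ in KO1 to KO3, BK in KO4, WT2 and WT4, BO in WT1 and BQ in WT3.

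Neurotrophins are secreted growth factors that keep neurons alive and shape the growth of axons and dendrites. BDNF binds the receptor tyrosine kinase TrkB (Ntrk2) and NT-3 binds TrkC (Ntrk3), while p75 (Ngfr) and sortilin (Sort1) together bind the uncleaved pro-forms. IGF1 acts through the tyrosine kinase encoded by Igf1r, whereas the product of Igf2r takes up IGF2 and carries lysosomal enzymes tagged with mannose 6-phosphate. Both systems feed the same kinase cascades in cortical neurons, and BDNF is a well known promoter of axon branching.

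Several features of the libraries bear on these genes. Library totals ranged from 31247078 to 67155004 counts, and each of the 9 genes had at least 67 counts in every library, so counting error was small beside the spread between cultures. Nuak1 was at 1.96 to 2.72 CPM (counts scaled by the library total) in KO and 51.6 to 82.6 CPM in WT. KO1 and WT1 stood apart from the other 6 on the first principal component, which held 49.0% of the variance, at −28.2 and −29.5. WT3 lay at its other end, at 23.6 beside 0.44 to 11.2 for the remaining 5, and was also lowest on the second (25.5% of the variance), at −15.5 beside −13.5 for KO4. A surrogate variable that separated KO1 and WT1 from the others was kept in the model. No 2 libraries agreed within sampling noise, since chi-square per degree of freedom was at least 18.8 for any pair. Markers of cortical projection neurons summed to between 989 and 1220 CPM in KO and between 956 and 1239 CPM in WT. Astrocyte markers gave 795 to 1460 and 748 to 1139 CPM. In such mixed cultures, fewer cells of a type and less RNA per cell cannot be told apart.

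None of the 9 genes passed the adjusted threshold in edgeR, and Ntrk3, the TrkC gene, was the only member past the study's threshold and the only 1 of the 9 with an unadjusted p under 0.05. That threshold is an absolute log2 fold change above 0.25 with an unadjusted p under 0.05. Across all tested genes, 8 passed the adjusted threshold of 0.05 (0.0492%, edgeR quasi-likelihood test with Benjamini-Hochberg adjustment), and 1708 had an unadjusted p under 0.05. The study threshold was passed by 571 genes lower in KO (3.51%) and by 923 in either direction (5.67%). Beside these shares, 1 of 9 members is not read as a result about the group. In 8 of 9 members the log2 fold change was negative, and its median was −0.21, beside a median of 0.014 and 46.6% negative over all tested genes. CPM overlapped between the genotypes in every member, while 390 genes (2.4%) did not overlap. DESeq2 with the same surrogate variable called 1 member, Ntrk3, among 169 genes (1.04%).

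**Figure D1:**
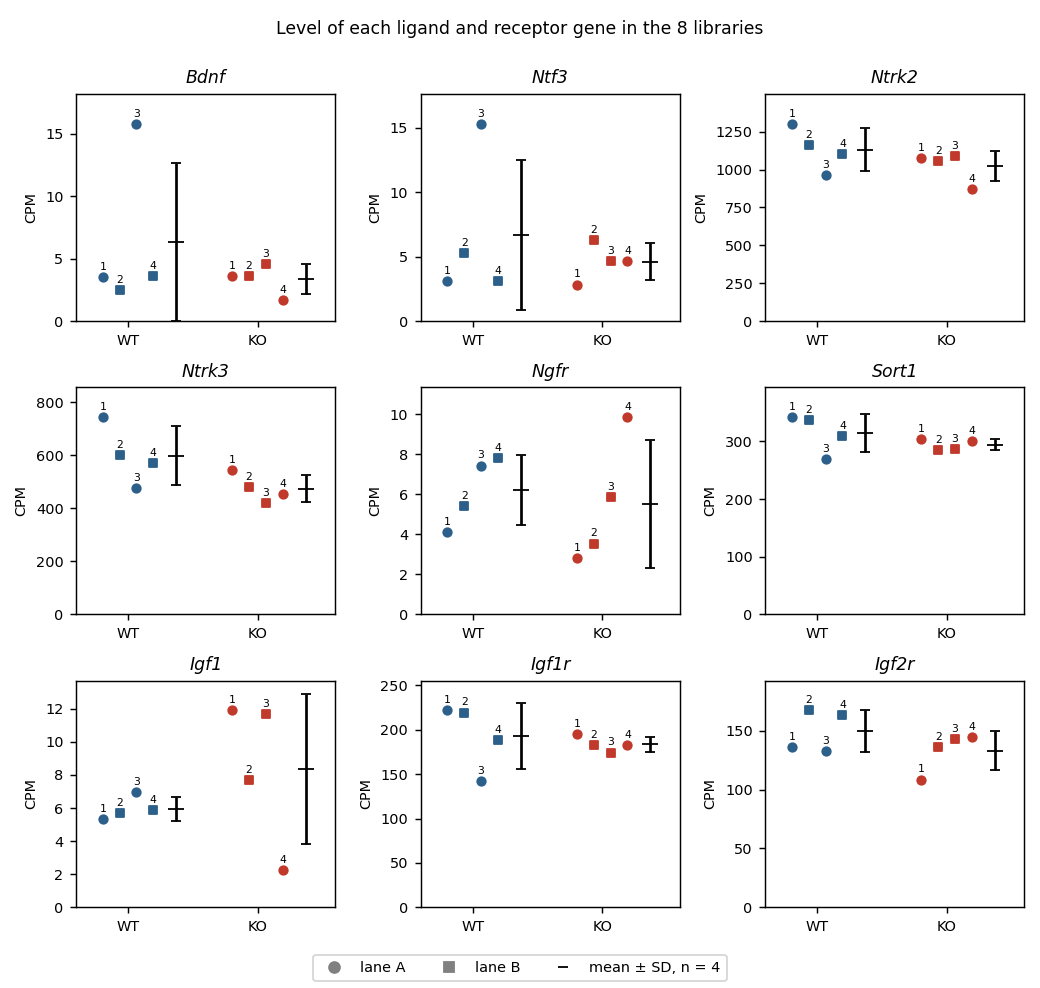
Level of the 9 genes in each library, in CPM, for WT (blue) and KO (red). Numbers beside the points are replicate numbers, circles are lane A, squares lane B, and the black mark is the mean ± SD (n = 4). Bdnf and Ntf3 are both far higher in WT3 (15.8 and 15.3 CPM) than in the other libraries, and Ntrk3 is at 420 to 545 CPM in KO against 476 to 745 CPM in WT.

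Ntrk3 (ENSMUSG00000059146, GRCm38 chromosome 7, 78179986 to 78581034) had the smallest p of the 9. It was at 545, 481, 420 and 454 CPM in KO1 to KO4 and at 745, 602, 476 and 570 CPM in WT1 to WT4. WT1, WT2 and WT4 were above every KO library, and WT3 lay inside the KO range. Mean levels were 475 ± 52.8 CPM in KO against 598 ± 111 CPM in WT (SD, n = 4 each). The log2 fold change was −0.37 (SE 0.08), a level 22.7% lower in KO, with an unadjusted p of 0.00116 and an adjusted p of 0.244 in the edgeR quasi-likelihood test. The difference was negative within both lanes, at −0.32 on lane A and −0.45 on lane B, and in each of the 19 alternative fits, between −0.31 and −0.45. Its call depended on the tool and, in edgeR, on WT3. Without WT3 the log2 fold change was −0.44 (SE 0.07) and the adjusted p 0.0345, when 114 genes (0.694%) passed and 2 of the 9 members did. With DESeq2 the adjusted p of Ntrk3 was 0.00576, and over all alternatives it ranged from that value to 1. Without the pair KO1 and WT1 the log2 fold change was −0.32, with an adjusted p of 0.98.

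Ntrk2 (ENSMUSG00000055254, chromosome 13, 58806472 to 59133970), the TrkB gene, was the member with the most counts, 35317 to 77930 per library. Its levels were 1074, 1054, 1090 and 873 CPM in KO and 1301, 1160, 962 and 1103 CPM in WT. KO4 was below all the others, and WT3 was below 3 of the 4 KO libraries. KO was lower by a log2 fold change of −0.19 (SE 0.09, edgeR adjusted p 0.509), which did not exceed the spread between libraries. It kept its sign in all 19 alternatives, between −0.39 and −0.13. Counts per gene add up full-length forms and the truncated forms of TrkB and TrkC that lack the kinase, so the 2 kinds of receptor cannot be told apart in these values. The log2 ratio of Ntrk3 to Ntrk2 counts in the same library, which does not depend on library size, was −1.11 ± 0.20 in KO and −0.93 ± 0.09 in WT (SD, n = 4 each). The difference of −0.18 had a p of 0.2 in a two-sided exact permutation test and 0.629 after adjustment over the 4 ratios compared, where the smallest p that 4 against 4 allows is 0.0286. Without KO3 the difference was −0.089, and it was −0.052 on lane A against −0.30 on lane B. KO3 had the lowest ratio, −1.38, and KO1 and KO4 lay within the WT range, from −1.02 to −0.80.

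The receptors for pro-neurotrophins were represented very unequally. Sort1 (ENSMUSG00000068747, chromosome 3, 108283974 to 108361519), which encodes the sorting receptor sortilin, was at 305, 285, 287 and 301 CPM in KO and 342, 337, 269 and 309 CPM in WT. WT3 was the lowest of all and the other WT libraries were above every KO library. The 4 KO libraries differed little, with an SD of 9.90 CPM around 294 CPM, while the SD in WT was 33.5 CPM around 314 CPM. A log2 fold change of −0.14 resulted (SE 0.08, edgeR adjusted p 0.585), with −0.04 on lane A and −0.25 on lane B. Leaving out single libraries moved it between −0.07 (without WT2) and −0.20 (without WT3). In the annotation available here, 329 bases of its exons, 4.35% of their length, were shared with a gene on the opposite strand, Gm12523, and whether reads were counted by strand is not stated.

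Ngfr (ENSMUSG00000000120, chromosome 11, 95568818 to 95587698), the p75 gene, which is expressed strongly in early neurons and little in mature ones, was among the lowest members. It had 97 to 399 counts, or 2.79, 3.53, 5.85 and 9.86 CPM in KO and 4.10, 5.42, 7.43 and 7.82 CPM in WT. KO1 was the lowest and KO4 the highest of all 8, so the KO libraries spanned the whole WT range. For Ngfr the log2 fold change was −0.23 (SE 0.26, edgeR adjusted p 0.788), with 0.13 on lane A but −0.53 on lane B. Single libraries weighed on it, since it was −0.55 without KO4 (adjusted p 0.405), −0.07 without WT1 or KO2 and −0.14 without WT4. The log2 ratio of Ngfr to Sort1 was −5.91 ± 0.81 in KO and −5.71 ± 0.57 in WT (SD, n = 4 each). Its difference of −0.21 did not pass (p = 0.629, two-sided exact permutation test, adjusted 0.629), and it was 0.08 without KO1.

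**Figure D2:**
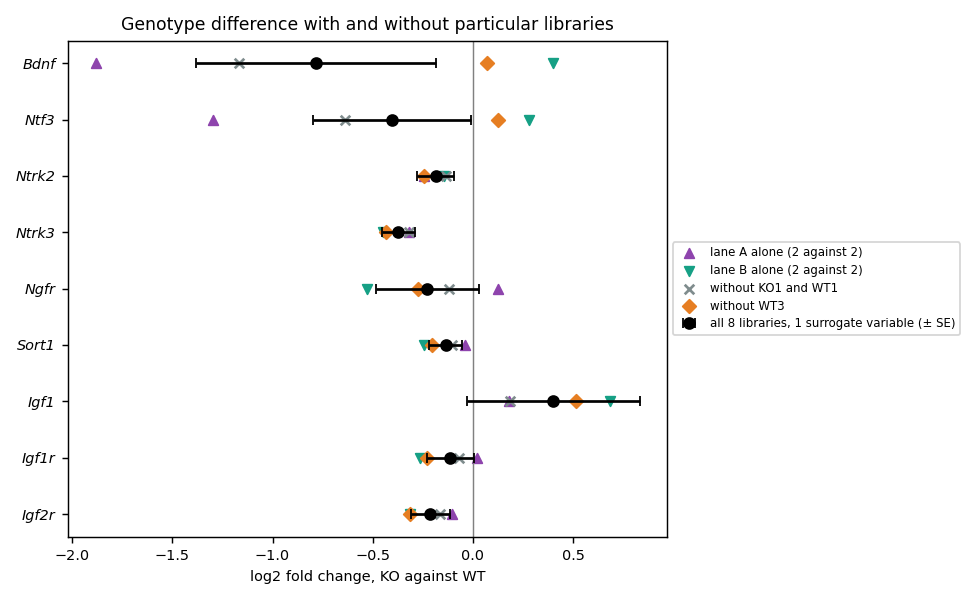
Log2 fold change of KO against WT for the 9 genes. Black points are the fit to all 8 libraries with their SE, and coloured marks are lane A alone, lane B alone, the fit without KO1 and WT1 and the fit without WT3. Bdnf runs from −1.88 (lane A) to 0.40 (lane B) and Ntf3 from −1.30 to 0.28, while all marks of Ntrk3 lie between −0.45 and −0.32.

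Bdnf (ENSMUSG00000048482, chromosome 2, 109674700 to 109727043) is transcribed from several start sites, each with its own first exon, and its expression follows neuronal activity. It was at 3.59, 3.61, 4.58 and 1.66 CPM in KO and 3.52, 2.46, 15.8 and 3.61 CPM in WT. WT3, with 752 counts, was 4.39 times the median of the other 7 libraries, and among those 7 the WT libraries lay inside the KO range. Means were 3.36 ± 1.23 CPM in KO against 6.34 ± 6.31 CPM in WT (SD, n = 4 each). The log2 fold change of −0.78 (SE 0.60, edgeR adjusted p 0.67) was 0.07 (SE 0.30, adjusted p 0.933) without WT3. It also shrank with WT3 kept, to −0.07 with 2 surrogate variables on all 8 libraries and to −0.15 without WT1. The fit without WT1 used 2 surrogate variables as well, so these values are not separate evidence. On lane A, which holds WT3, it was −1.88, and on lane B 0.40.

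Ntf3 (ENSMUSG00000049107, chromosome 6, 126101412 to 126166772), which encodes NT-3, the preferred ligand of TrkC, showed the same library apart. Its levels were 2.82, 6.30, 4.64 and 4.65 CPM in KO and 3.10, 5.29, 15.3 and 3.08 CPM in WT. Its log2 fold change was −0.40 (SE 0.40, edgeR adjusted p 0.746) and 0.12 (SE 0.23, adjusted p 0.842) without WT3. Its sign was also positive without WT1, at 0.09 in a fit with 2 surrogate variables, with 2 surrogate variables on all 8 libraries, at 0.064, and on lane B, at 0.28. The log2 ratio of Ntf3 to Bdnf was 0.49 ± 0.82 in KO and 0.16 ± 0.63 in WT (SD, n = 4 each), a difference of 0.33 (p = 0.6, two-sided exact permutation test, adjusted 0.629). In WT3, where both ligand transcripts were high, the ratio was −0.04, within the wide range of −0.35 to 1.49 over the other libraries.

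The regions upstream of 3 members are shown because both ligand genes were high in 1 library and Igf2r was called without it. RefSeq start sites on GRCm38.p6 were given for 7 of the 9 genes, with 14 windows in all, 7 of them of Bdnf. Each sequence is the 250 bases before a start site, 5′ to 3′ on the gene's strand, at chr2:109692186-109692435 (plus strand, Bdnf), chr6:126166745-126166994 (minus strand, Ntf3) and chr17:12769707-12769956 (minus strand, Igf2r). Capitals mark TCACGTCA, a variant of the cAMP response element TGACGTCA, or the E-box CACGTG, each searched on both strands.
Bdnf: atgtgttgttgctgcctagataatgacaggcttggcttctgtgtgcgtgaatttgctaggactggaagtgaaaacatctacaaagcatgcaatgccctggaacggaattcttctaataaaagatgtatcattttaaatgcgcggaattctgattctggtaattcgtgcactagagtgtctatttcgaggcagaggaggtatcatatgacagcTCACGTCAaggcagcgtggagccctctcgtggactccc
Ntf3: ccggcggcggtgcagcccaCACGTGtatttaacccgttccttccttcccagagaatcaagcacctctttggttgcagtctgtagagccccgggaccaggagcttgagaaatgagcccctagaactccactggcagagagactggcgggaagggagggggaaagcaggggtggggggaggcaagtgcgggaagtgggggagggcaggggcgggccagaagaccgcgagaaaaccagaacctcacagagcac
Igf2r: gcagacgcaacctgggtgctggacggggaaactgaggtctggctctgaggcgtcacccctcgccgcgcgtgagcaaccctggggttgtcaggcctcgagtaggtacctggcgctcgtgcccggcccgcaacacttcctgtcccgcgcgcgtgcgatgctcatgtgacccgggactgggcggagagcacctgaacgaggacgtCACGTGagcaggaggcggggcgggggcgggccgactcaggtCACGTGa
The variant element stood in 1 of the 14 windows, this one of Bdnf, with its first base 38 bases before the start site, and in 0.35% of all 32851 windows of the same length. As background, an element of this form in an activity-regulated Bdnf promoter is known to be bound by CREB. The palindrome TGACGTCA was in none of the 14 windows and in 1.55% of all. CACGTG occurred once in the Ntf3 window and 2 times in the Igf2r window, at 48 and 7 bases before the start site, beside 6.02% of all windows with at least 1 and 0.429% with at least 2. These matches are letters in a window and not measured sites, and gene counts do not say which start site was used.

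Genes known to respond to neurotrophin signalling were set beside the ligands in each library. Of the 15 genes listed, WT3 had the highest level in 10, WT4 in 3, and KO1 and KO3 in 1 each. The share of all tested genes highest in WT3, which lay at an end of the first principal component, was not counted. The 10 of 15 is therefore not read as a response to the ligands. Vgf, a secreted neuropeptide precursor induced by BDNF, was at 16.6 CPM in WT3 and at 0.96 to 3.95 CPM elsewhere. Fos, an immediate early transcription factor, was at 14.7 CPM in WT3 and 9.95 CPM in WT4, and Fosb at 8.41 and 4.74 CPM. Dusp6, a phosphatase that switches off ERK, was at 24.7 CPM in WT3 and 10.6 to 14.6 CPM elsewhere. The summed projection neuron markers were also highest in WT3 (1239 CPM, beside 1220 CPM in KO4) and the summed progenitor and astrocyte markers lowest (279 and 748 CPM). Single markers went both ways. The projection neuron markers Tbr1 (86.3 CPM) and Bcl11b (100 CPM) were lowest in WT3, and the progenitor markers Vim (96.9 CPM) and Hes5 (13.7 CPM) highest. The part of these differences in the ligand levels was not tested. Between genotypes, 13 of the 15 genes had a negative log2 fold change with a median of −0.32, and 1, Junb, passed the study threshold, beside 46.6% negative, a median of 0.014 and 5.67% past that threshold over all tested genes. This median also depended on WT3, since without it the median was −0.14, with 12 of the 15 negative, beside a median of 0.013 over all genes in that fit. The genes past the study threshold depended on single libraries as well. Without WT2 they were Vgf, Arc, Fosb, Junb, Dusp4 and Dusp6, where 5.55% of all genes passed. Junb was at 1.43 CPM in WT3 and at or below 0.448 CPM in every other library, down to 0.032 CPM, which is below the floor of 3 counts. Its fold change was −1.06 on the log2 scale (SE 0.43, edgeR adjusted p 0.445) and −0.61 without WT3, and it had no DESeq2 result. Npy, a neuropeptide whose expression BDNF promotes, had the opposite sign. It was at 5.20, 5.58, 7.52 and 6.82 CPM in KO and 2.37, 4.15, 12.1 and 3.71 CPM in WT, so that WT3 was the highest and the other WT libraries were below every KO library. Its log2 fold change was 0.33 (SE 0.33, edgeR adjusted p 0.757) with all libraries and 0.79 (adjusted p 0.0388) without WT3, the only 1 of the 15 past either threshold in that fit, where 0.694% of all genes passed the adjusted threshold and 7.79% the study threshold. The value for Npy was 0.67 on lane B and 0.59 without WT1, but −0.27 on lane A. It was −0.03 without KO1 and WT1 and 0.07 without KO1, so its sign was not steady.

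**Figure D3:**
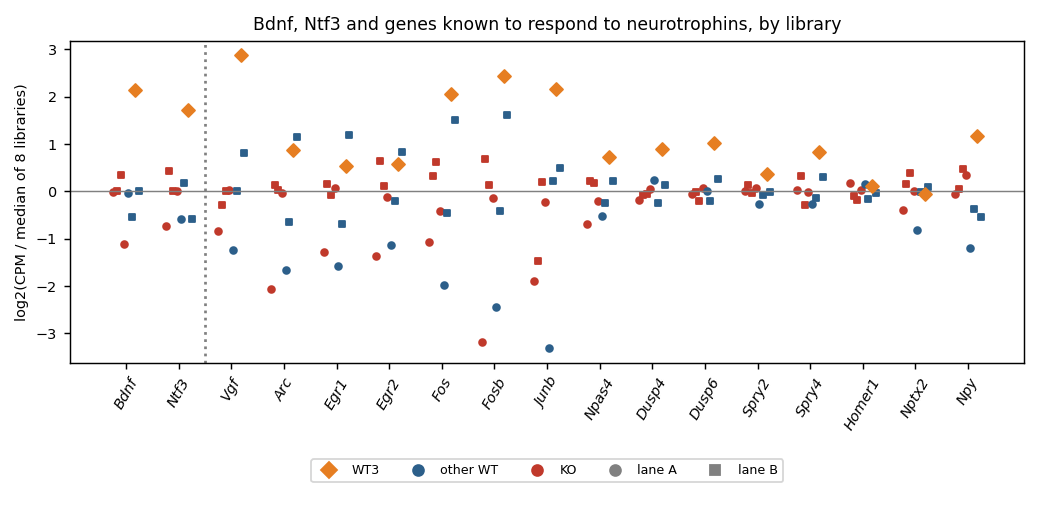
Levels of Bdnf, Ntf3 and 15 genes known to respond to neurotrophins, as log2 of CPM over the median of the 8 libraries. Orange diamonds are WT3, blue marks the other WT libraries and red marks KO, with circles for lane A and squares for lane B. WT3 is the highest library for both ligands and for 10 of the 15 genes, among them Vgf at 16.6 CPM. The share of all tested genes highest in WT3 was not counted.

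Igf1 (ENSMUSG00000020053, chromosome 10, 87858265 to 87937047) was the only member with a positive log2 fold change. It was at 11.9, 7.69, 11.7 and 2.22 CPM in KO and at 5.31, 5.67, 6.99 and 5.90 CPM in WT. KO1, KO2 and KO3 were above every WT library and KO4, with 90 counts, was below all of them. Means were 8.38 ± 4.54 CPM in KO against 5.97 ± 0.72 CPM in WT (SD, n = 4 each). The log2 fold change of 0.40 (SE 0.43, edgeR adjusted p 0.774) did not exceed the spread between KO libraries, and it was 0.77 without KO4 and 0.03 without KO3. With the strain label as a term it was −1.39. Igf1 lies 3.42 Mb from Nuak1 on the same chromosome, so sequence linked to the targeted allele and the loss of Nuak1 cannot be told apart for this gene.

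Igf1 is made in the brain by microglia and by some interneurons, whose markers varied between these cultures. The 14 microglia and macrophage markers summed to 18.1, 52.5, 74.0 and 8.97 CPM in KO, while the WT sums were 9.63, 16.2, 9.36 and 36.9 CPM. None of the 14 was at or below 3 counts in every library, 12 were tested, 11 of those had a positive log2 fold change, 0 had an unadjusted p under 0.05 in edgeR and 0 passed with DESeq2. The 10 interneuron markers summed to 375, 257, 347 and 232 CPM in KO, while the WT sums were 291, 209, 328 and 231 CPM. KO1 combined the highest Igf1 with the highest interneuron sum and a microglial sum under that of 3 other libraries. Gad1, Gad2, Dlx1 and Lhx6 made up most of that sum, and single markers did not all follow it, since Slc32a1, the vesicular GABA transporter, was at 6.44 CPM in KO1 and 23.2 CPM in WT3, and Sst, somatostatin, at 21.7 and 69.6 CPM. KO4 combined the lowest Igf1 with the lowest microglial sum. Other libraries did not follow this, since WT1 and WT3 had microglial sums of 9.63 and 9.36 CPM with Igf1 at 5.31 and 6.99 CPM. WT4 had a microglial sum of 36.9 CPM with Igf1 at 5.90 CPM. The part of either cell type in the Igf1 levels was not tested. Atp6v0c, Bhlhe41 and Txlnb, none of them on the marker lists, followed Igf1 most closely over the 8 libraries.

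**Figure D4:**
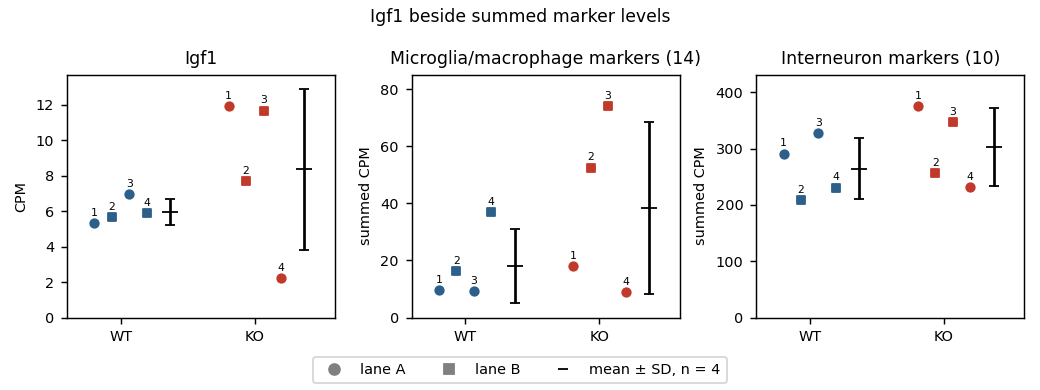
Igf1 (CPM), and the summed CPM of 14 microglia and macrophage markers and of 10 interneuron markers, in each library. Blue is WT and red KO, circles are lane A and squares lane B, numbers are replicates and black marks the mean ± SD (n = 4). KO3 has the highest microglial sum (74.0 CPM), KO1 the highest interneuron sum (375 CPM), and these are the 2 libraries highest in Igf1 (11.7 and 11.9 CPM). WT4 has a microglial sum of 36.9 CPM with Igf1 at 5.90 CPM, and WT3 an interneuron sum of 328 CPM with Igf1 at 6.99 CPM.

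Igf1r (ENSMUSG00000005533, chromosome 7, 67952257 to 68233668), the signalling receptor for IGF1, was at 195, 183, 174 and 183 CPM in KO and at 222, 219, 143 and 188 CPM in WT. WT3 was again the lowest library and the KO libraries lay together between WT3 and WT1. For Igf1r the genotype difference was −0.11 on the log2 scale (SE 0.12, edgeR adjusted p 0.765). Lane A alone gave 0.02 and lane B −0.26, and the value was 0.0080 without WT2, so these data give it no steady direction. Insr, the insulin receptor gene, whose product pairs with that of Igf1r in hybrid receptors, was at 191, 156, 153 and 161 CPM in KO and 216, 193, 159 and 193 CPM in WT. Its log2 fold change of −0.247 (SE 0.07, unadjusted p 0.0072 and adjusted p 0.348, edgeR) was just short of the study threshold. Insr passed that threshold with DESeq2 (−0.253), with the DESeq2 size factors, with 2 surrogate variables, on lane B (−0.39) and without KO1, KO4, WT1 or WT3 (−0.25 to −0.30), and had an adjusted p of at least 0.0569 in these fits. It did not pass in the others, among them lane A (−0.12, unadjusted p 0.685, edgeR). Its unadjusted edgeR p was 0.0948 with no surrogate variable, 0.0975 with lane as a term and 0.216 with the strain label.

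Igf2r (ENSMUSG00000023830, chromosome 17, 12682406 to 12769706) was at 109, 136, 143 and 145 CPM in KO and at 136, 168, 132 and 163 CPM in WT. KO1 was the lowest and WT2 and WT4 the highest, while WT1 and WT3 lay inside the KO range. On the log2 scale the difference was −0.21 (SE 0.10, edgeR adjusted p 0.493) and negative in all 19 alternatives, from −0.32 to −0.10. Without WT3 it was −0.31 (SE 0.06) and Igf2r passed with an adjusted p of 0.039, the second member to do so in that fit. The log2 ratio of Igf2r to Igf1r was −0.47 ± 0.25 in KO and −0.35 ± 0.27 in WT (SD, n = 4 each). The difference of −0.12 did not pass (p = 0.486, two-sided exact permutation test, adjusted 0.629), and KO1 and WT1 had the lowest ratios of their genotypes, −0.84 and −0.71.

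**Figure D5:**
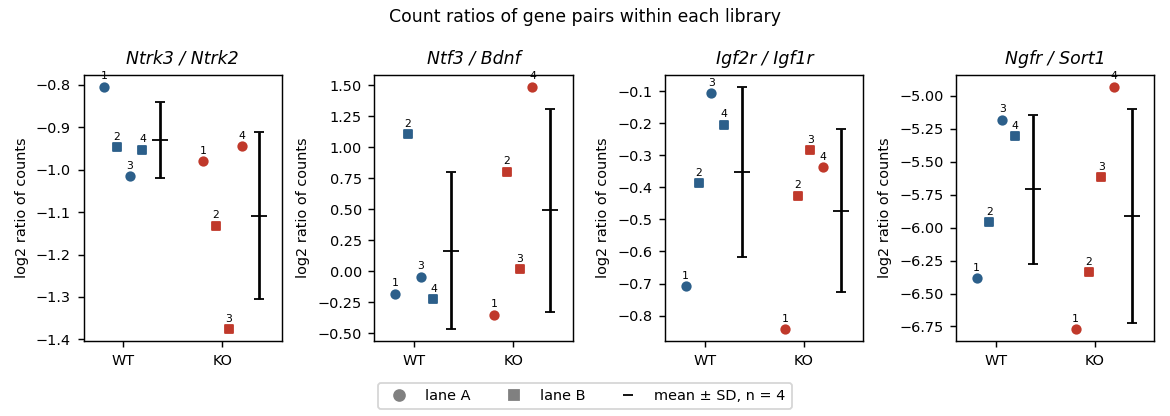
Log2 ratio of counts of 2 genes in the same library, for Ntrk3 over Ntrk2, Ntf3 over Bdnf, Igf2r over Igf1r and Ngfr over Sort1. Blue is WT and red KO, circles are lane A and squares lane B, numbers are replicates and black marks the mean ± SD (n = 4). The genotypes overlap in all 4 ratios, and the axes do not start at 0.

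Per length of exon, 5 of the 6 receptors stood above all 3 ligands, and Ngfr lay among the ligands. In WT, Ntrk3 was at 114 ± 21.3 CPM per kb of exon and Ntrk2 at 75.0 ± 9.31, and their ranges over the 8 libraries overlapped. Igf1r at 43.1 ± 8.28 and Sort1 at 41.6 ± 4.43 CPM per kb came next, overlapped each other and stood below both Trk genes. Igf2r at 15.9 ± 1.93 CPM per kb overlapped none of its neighbours. Ntf3 at 4.69 ± 4.08, Ngfr at 1.80 ± 0.507, Bdnf at 1.08 ± 1.08 and Igf1 at 0.601 ± 0.0726 CPM per kb overlapped in turn (SD, n = 4 each). Lengths came from an older annotation than the one used for counting, and long untranslated ends that few transcripts use lower the value of a gene such as Igf1. The order of the Trk genes rested on these lengths, 5.24 kb for Ntrk3 and 15.1 kb for Ntrk2. Before division by length Ntrk2 was the higher in WT, at 1132 against 598 CPM. All 6 receptor genes had a negative log2 fold change, with a median of −0.20, and 0 of the 6 passed the adjusted threshold in edgeR, while 1, Ntrk3, had an unadjusted p under 0.05 and passed with DESeq2. Over all tested genes 46.6% were negative, 10.5% had an unadjusted p under 0.05 and 1.04% passed with DESeq2. The sign of 2 of the 6, Ngfr and Igf1r, was positive in some alternatives, lane A alone among them.

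Ntf5 and Igf2, other ligands of the 2 families, were barely detected. Ntf5, which encodes the other ligand of TrkB, had at most 9 counts in any library. Igf2 was listed with 1 count in WT1 and 0 in the other 7 libraries, where a count of 0 allows up to 3 counts, or 0.0447 to 0.0867 CPM. A read that overlaps several annotated genes is left uncounted in union mode, so this is a statement about the table and not about the transcript. Igfbp5, a binding protein that holds IGFs outside the cell, reached 522 CPM in KO and 406 CPM in WT, and Igfbp3 was at 66.9 to 124 and 39.9 to 156 CPM. Of Igfbp2, Igfbp3, Igfbp4, Igfbp5, Igfbp7 and Igfbpl1, the family members tested, none passed either threshold or had an unadjusted p under 0.05 in edgeR with all 8 libraries, and none passed with DESeq2. On lane B alone, where 9.58% of all genes passed the study threshold, 4 of the 6 did, Igfbp2 (−1.11), Igfbp3 (−0.52), Igfbp4 (0.52) and Igfbp7 (0.92). Igfbp3 had an edgeR adjusted p of 0.036 there and 0.022 without WT3 (−0.53), and it passed the study threshold in both, as Igfbp7 did without KO1 (1.17, adjusted p 0.669). On lane A alone the sign was the opposite for Igfbp2 (0.60), Igfbp3 (0.35) and Igfbp4 (−0.72) and the same for Igfbp7 (0.20). Igfbp1 and Igfbp6 were too low to be tested.

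Across 106 other genes of the 2 pathways, 98 were tested, 0 passed the adjusted threshold in edgeR or DESeq2, 13 had an unadjusted p under 0.05 (13.3%, beside 10.5% of all tested genes) and 5 passed the study threshold (5.10%, beside 5.67%). Their median log2 fold change was −0.012, and 56.1% were negative. Among 21 adaptors and effectors of Trk and p75 receptors, 8 had a negative and 13 a positive log2 fold change, and 2 lower and 1 higher in KO passed the study threshold, while 0 passed the adjusted threshold. Kidins220, a scaffold phosphorylated by Trk receptors, was at 1126 to 1273 CPM in KO against 1220 to 1500 CPM in WT, or −0.28 on the log2 scale (SE 0.10, edgeR adjusted p 0.377). Shc3, a neuronal adaptor of TrkB, was at 18.7 to 24.0 CPM in KO against 18.3 to 38.4 CPM in WT (−0.26, SE 0.10, edgeR adjusted p 0.434), and without WT3, its highest library, it was −0.14 and no longer past the study threshold. Shc1, the widely expressed adaptor of the same family, was higher, at 6.29 to 8.15 CPM in KO against 5.25 to 5.82 CPM in WT without overlap (0.36, SE 0.11, adjusted p 0.365). Igf2bp2, which encodes a protein that binds Igf2 mRNA, was also without overlap, at 11.3 to 13.8 CPM in KO against 7.93 to 10.7 CPM in WT (0.35, SE 0.13, adjusted p 0.405). Shc1 stayed past the study threshold without each library in turn. Kidins220 did not without KO1 (−0.25) or WT2 (−0.22), Igf2bp2 without KO4 (0.27), WT1 (0.27) or WT3 (0.24), Shc3 also without KO2, KO3, KO4 or WT1, and Junb without KO2, KO4, WT1, WT3 or WT4. Of the 38 tested adaptors and shared kinases downstream of the IGF and insulin receptors, 5 had an unadjusted p under 0.05 in edgeR, 0 passed the study threshold and 0 passed with DESeq2.

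The genes whose level followed each member most closely were read from 13701 genes with a mean of at least 1 CPM, by Pearson's r of log2 CPM over the 8 libraries. Libraries share depth, lane and makeup, so r is given as a description, and the second r leaves out the 2 libraries farthest from the member's median. For Ntrk3 they were Pcdhb7 (r = 0.993 and 0.97), Hgsnat (0.989 and 0.986) and an unnamed gene, ENSMUSG00000102801 (0.983 and 0.935). For Ntrk2 they were mt-Rnr2 (0.976 and 0.92), Lrrc8c (0.972 and 0.931) and Plxdc2 (0.967 and 0.877). The first of these is a mitochondrial ribosomal RNA, and its mean of 3.35 CPM is what poly-A selection and the removal of ribosomal reads left. For Bdnf they were Plekhm3 (0.961 and 0.882), Acan (0.955 and 0.332) and Htr7 (0.95 and 0.89), so the likeness to Acan, a perineuronal net protein, rested on KO4 and WT3. Ntf3 was followed by Palm3 (0.976 and 0.889), Synpo (0.96 and 0.795) and Mtfp1 (0.958 and 0.789), and Ngfr by Id2 (0.955 and 0.881), Mrps21 (0.945 and 0.89) and Pgf (0.939 and 0.866). Sort1 was followed by D630045J12Rik (0.98 and 0.932), D430041D05Rik (0.968 and 0.921) and Nrcam (0.963 and 0.962). Igf1 was followed by Atp6v0c (0.939 and 0.948), Bhlhe41 (0.935 and 0.763) and Txlnb (0.93 and 0.688). Igf1r was followed by Ptprb (0.974 and 0.98), Neto2 (0.973 and 0.92) and Tbk1 (0.969 and 0.979), and Igf2r by Tm9sf4 (0.981 and 0.933), Clptm1 (0.969 and 0.847) and Agpat6 (0.967 and 0.845). Among the 36 pairs of members, r ran from −0.681 (Bdnf and Igf1r) to 0.944 (Sort1 and Igf1r), and the 6 pairs among Ntrk2, Ntrk3, Sort1 and Igf1r were at 0.746 or above. Without the 2 libraries farthest from the median of the first gene named, Sort1 and Igf1r were at 0.845, Ntrk3 and Sort1 at 0.564 and Ntrk3 and Igf1r at 0.39. In the same way Ntrk2 and Ntrk3 were at 0.677, Ntrk2 and Sort1 at 0.948 and Ntrk2 and Igf1r at 0.946. Bdnf and Ntf3 were at 0.679 with all libraries but at −0.30 without WT3.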

How the data were processed

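Poly-A RNA of cultured mouse neurons was sequenced in 4 KO and 4 WT libraries, grouped by the genotype in the labels. The deposited values are raw counts per gene, made by the authors. Per the labels and methods, reads were trimmed with cutadapt 1.10, cleared of ribosomal RNA with Bowtie2 2.2.8, aligned to mm10 with STAR 2.5.3a and counted with HTSeq 0.6.1p1 in union mode. Labels and methods give different read layouts, and the library kit was stranded, while the strand setting of the counting is not given in the sources used here. Discarding multi-mapped reads lowers genes with near-identical copies. Total counts ranged from 31247078 to 67155004, and floors of 3 counts cover counting error only.

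The test was run on the counts with edgeR 4.0.16 in R 4.3.3 (filterByExpr, TMM, robust quasi-likelihood F test) with 1 surrogate variable from svaseq (sva 3.50.0), and p-values were adjusted by the Benjamini-Hochberg method over all 16272 genes. The study's methods used DESeq2 with surrogate variables and independent hypothesis weighting, and the weighting was left out here. DESeq2 1.42.0 served as an alternative. SE is the absolute log2 fold change divided by the square root of F. CPM are counts over the library total. Ratios were compared by exact permutation tests (scipy 1.17.1). The procedure was tested on simulated data. Members and gene lists were chosen with earlier results of these data known. Named genes were the 9 members, Nuak1 as a check of the labels, up to 8 pathway genes past the study threshold, other ligands, receptors and binding proteins as levels (some are not reported here), the 3 genes most like each member, and, chosen after their values were seen, Vgf, Fos, Fosb, Dusp6 and Npy. Positions and upstream sequences are from RefSeq on GRCm38.p6 and exon lengths from Gencode vM1. Each genotype's libraries are separate animals per the methods. Alternatives covered surrogate variables, lane, strain label, replicate number, scaling, filter, single lanes and leaving out libraries.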

Additional observations from a re-analysis of the deposited data

Results flagged for a closer look

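Of 36 groups of 4 libraries examined (levels of the 9 members and 5 named pathway genes, and 4 ratios, in each genotype), 3 held a library whose gap to its nearest neighbour exceeded Dixon's limit, and chance alone gives about 1 in 20. Bdnf was at 15.8 CPM in WT3, where the other WT libraries had 2.46 to 3.61 CPM. Ntrk2 was at 873 CPM in KO4, where the other KO libraries had 1054 to 1090 CPM. The log2 ratio of Ntf3 to Bdnf was 1.11 in WT2, against −0.23 to −0.04 in the other WT libraries.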

How the results depend on the processing

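Over 19 alternatives, Ntrk2, Ntrk3, Sort1 and Igf2r stayed lower in KO in all 19. Bdnf was positive on lane B (0.40) and without WT3 (0.071). Ntf3 was positive with 2 surrogate variables (0.064), the strain label (0.11), lane B (0.28), without WT1 (0.09) and without WT3 (0.12). Ngfr was positive with the strain label (0.57) and on lane A (0.13), Igf1 negative with the strain label (−1.39), and Igf1r positive on lane A (0.020) and without WT2 (0.0080). Leave-one-out values ran from −1.06 to 0.071 for Bdnf, −0.63 to 0.12 for Ntf3, −0.55 to −0.07 for Ngfr, −0.20 to −0.07 for Sort1 and −0.23 to 0.0080 for Igf1r. The log2 ratio of Ntf3 to Bdnf was −0.029 on lane B, and without single libraries it ran from −0.0064 (without KO4) to 0.64. That of Ntrk3 to Ntrk2 ran from −0.23 to −0.089 (without KO3), that of Igf2r to Igf1r from −0.24 to 0.0027 (without KO1) and that of Ngfr to Sort1 from −0.53 to 0.081 (without KO1). The fit without WT1 had 2 surrogate variables, as estimated there. The cause of these reversals was not tested.

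Genes past the adjusted threshold, 8 in all, numbered 4 with no surrogate variable, 17 with 2, 4 with lane, 1 with the strain label, 49 without a filter, 169 with DESeq2, 0 on lane A (89 with an unadjusted p under 0.05), 99 on lane B, 3 without KO1 and WT1, and 3 to 114 without single libraries. Members past it numbered 1 with DESeq2 (Ntrk3) and 0 to 2 without single libraries (Ntrk3 and Igf2r without WT3). Members past the study threshold numbered 2 with 2 surrogate variables (Ntrk3, Igf2r; 6.84% of all genes), 2 with the strain label (Bdnf, Igf1; 1.91%), 0 on lane A (0.591%), 4 on lane B (Ntrk3, Igf1, Igf1r, Igf2r; 9.58%) and 1 to 3 without single libraries (Ntrk3, Ngfr and Igf1 without KO4, 7.15%), where 4.46% to 8.40% of all genes passed. Pathway genes past it, 5 in all, numbered 3 with no surrogate variable (2.43% of all genes), 8 with 2, 3 with lane (2.78% of all genes), 1 with the strain label, 0 on lane A, 10 on lane B and 3 to 9 without single libraries.

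Same-numbered libraries did not pair, their deviations correlating at 0.788, 0.0093, 0.237 and −0.011. With a replicate block 3 genes passed the adjusted threshold, 0 members among them, and Ntrk3 was at −0.36 (adjusted p 0.603, edgeR). It put 1 member, Ntrk3, and 5 pathway genes past the study threshold, with Stc2 in place of Shc3, where 4.65% of all genes passed. A block cannot move the 4 ratio differences, and their exact paired permutation p-values were 0.25 for Ntrk3 to Ntrk2 and for Ngfr to Sort1, 0.875 for Ntf3 to Bdnf and 0.125, the lowest that 4 pairs allow, for Igf2r to Igf1r. With 2 libraries a genotype, single lanes have few residual degrees of freedom, and Nuak1 itself had an adjusted p of 0.849 on lane A.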
